A study of Mus musculus with 15 samples.

Results

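The transcripts described here had their highest mean level 30 min after bacterial lipopolysaccharide (LPS) and lost most of it by 4 h, in the chromatin-associated RNA of mouse macrophages. They number 206 of the 113193 annotated transcripts that were quantified. They were chosen by measured values. A transcript was kept if its highest group mean was at 30 min, if that mean was at least 5 TPM (an abundance scaled for transcript length and depth), and if it was at least 4 times the untreated mean after 1 was added to both. All 3 libraries at 30 min had to lie above all 3 untreated libraries, and the 4 h mean plus 1 could be at most 0.5 times the 30 min mean plus 1. TPM was rescaled to a common total after the most abundant transcript of the series was left out, and every level given below is in rescaled TPM. The rise at 30 min, the peak at that time and the loss by 4 h are therefore descriptions of how the set was made and carry no test. The level at 1 h and 2 h, the size of each step of the decline, and the distance from the untreated level at 2 h and 4 h were fixed only in part by these conditions and are reported with tests where the design allows one.

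The cells were bone marrow-derived macrophages of C57BL/6 mice, grown from marrow in medium conditioned by L929 cells and used on day 7 of differentiation. One group was left untreated, and the others received LPS at 10 ng/ml for 30 min, 1 h, 2 h or 4 h. Each of the 5 groups had 3 libraries, made without strand information, so that RNA from opposite strands of the same place cannot be told apart. The labels do not tell if the 3 libraries of a group are from different animals or cultures, and the p-values below rest on a spread between libraries that could be technical. Same-numbered libraries of different groups deviated together from their group means, so the number was taken to pair them. Unless a replicate block is named, the tests below and their repeats without 1 library ignore this pairing.

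LPS is sensed by the receptor TLR4, and its signal reaches the nucleus through the MAP kinases and the transcription factors of the NF-kB family. The genes that respond soonest, called immediate early or primary response genes, are transcribed without the need for new protein, and many of them encode transcription factors, cytokines and inhibitors that act back on the same signal. The RNA left on chromatin after nuclear fractionation is rich in transcripts that are still being made, so that a burst of transcription and its end can appear in it sooner than in total RNA. The files name transcripts by Ensembl identifiers and do not pair them with gene symbols. None of the identifiers (0 of 113193) matched the RefSeq table of 49997 mouse genes, so no gene name or role is given to any transcript here, and the labelled cell type was not checked against marker genes.

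The libraries held 7537521 to 11892599 estimated counts. The most abundant transcript of the series, which is not in the set, took 5.94% to 26.95% of the TPM of a library, and the rescaling removed it. The 206 transcripts together held 0.142% to 0.187% of the estimated counts in the untreated libraries and 1.24% to 2.31% at 30 min. In bulk libraries, fewer cells that make an RNA and less of it per cell cannot be told apart.

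The conditions removed transcripts in steps. The highest mean was at 30 min for 14767 of 113192 transcripts, 5548 of these reached the minimum level, 507 also had the minimum fold, 240 of those had separated libraries, and 206 had also declined enough by 4 h. At the edges of the rule, the smallest fold inside was 4.02 and the nearest outside was 3.95. The lowest 30 min mean inside was 5.07 TPM and the nearest outside 4.98 TPM. The highest ratio of 4 h to 30 min inside was 0.497 and the nearest outside 0.520. The closest peak inside had a 30 min mean 1.004 times the next highest group mean, and the nearest transcript outside had 0.999 times. The peak condition thus had transcripts close to it on both sides, and 15 of the 206 had a 30 min mean under 1.1 times their 1 h mean.

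The summed level of the set was 2794, 2608 and 2401 TPM in the untreated libraries numbered 1, 2 and 3. At 30 min it was 25767, 41555 and 22636 TPM, and at 1 h it was 29222, 21472 and 14908 TPM. The ranges at 30 min and 1 h overlapped, and in the libraries numbered 1 the sum was higher at 1 h than at 30 min. At 2 h the sum was 7326, 7900 and 6008 TPM, below every library at 1 h. At 4 h it was 5326, 7133 and 5494 TPM, which overlapped the range at 2 h and stayed above every untreated library. As group means, the sum was 2601 ± 197 TPM untreated, 29986 ± 10141 TPM at 30 min, 21868 ± 7165 TPM at 1 h, 7078 ± 970 TPM at 2 h and 5984 ± 999 TPM at 4 h (SD, n = 3 each). The sum was unevenly shared. The 10 highest held 29.1% of the summed 30 min mean, the 20 highest 48.3% and the 50 highest 79.8%.

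**Figure D1:**
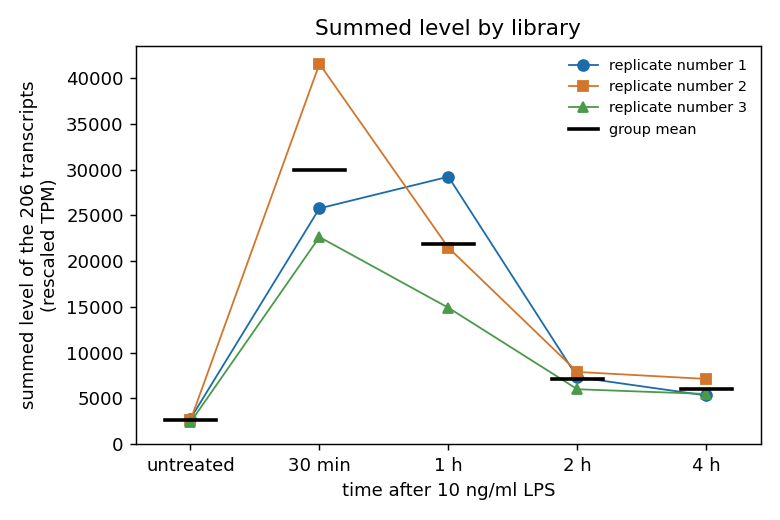
Summed level of the 206 transcripts in rescaled TPM (vertical axis, from 0) against time after LPS (horizontal axis, evenly spaced groups). Points are libraries, joined by replicate number, and black bars are group means. The 3 libraries at 2 h, from 6008 to 7900 TPM, lie below the 3 at 1 h, from 14908 to 29222 TPM, and the libraries numbered 1 are highest at 1 h.

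Single transcripts spanned a wide range. The 30 min mean had a median of 37.6 TPM over the set and ran from 5.07 to 1216 TPM, with 65 transcripts at 100 TPM or more and 77 under 20 TPM. The median untreated mean was 2.92 TPM, and 30 transcripts had estimated counts that rounded to 0 in all 3 untreated libraries. The fold at 30 min had a median of 8.67 and ran from 4.02 to 402. That largest fold belonged to a transcript of 689 nt whose level at 30 min was 97.9, 2590 and 167 TPM, so that 1 library held most of it.

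The transcript with the highest mean at 30 min was ENSMUST00000102881.9, of 4101 nt. It stood at 74.1, 147 and 139 TPM in untreated libraries and reached 478, 2006 and 1165 TPM at 30 min. Its libraries held 987, 947 and 767 TPM at 1 h, 234, 357 and 313 TPM at 2 h, and 297, 587 and 293 TPM at 4 h. All libraries of each LPS time lay above the untreated ones, the libraries at 2 h lay below those at 1 h, and the ranges at 30 min and 1 h overlapped. Its means were 120.2 ± 40.1, 1216 ± 765, 900.3 ± 117, 302 ± 62.4 and 392 ± 169 TPM in the order of time (SD, n = 3 each). In the edgeR quasi-likelihood test, with p adjusted over all transcripts tested, it rose by 3.32 ± 0.64 log2 units at 1 h against untreated (SE, adjusted p = 0.0274) and by 2.48 ± 0.61 at 4 h (adjusted p = 0.0325). The rule also used the untreated libraries, so tests against them are not independent of it. At 2 h the difference from untreated was 1.87 ± 0.60 log2 units and did not pass (adjusted p = 0.131), but it passed with the replicate number as a block (adjusted p = 0.0197). Its difference between 2 h and 1 h, -1.46 ± 0.59 log2 units, did not pass either (adjusted p = 0.353). The fits that follow left out the replicate block. The call at 1 h was lost without any 1 of the untreated libraries, without 1 h replicate 1 or without 1 h replicate 2 (adjusted p 0.0679 to 0.136). The call at 4 h was lost without any 1 of the untreated libraries, without 4 h replicate 1 or without 4 h replicate 2 (adjusted p 0.0543 to 0.128), with library size alone in place of TMM (adjusted p = 0.0613), and with only the 2 groups compared in the fit (adjusted p = 0.0536).

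The next highest, ENSMUST00000200919.1, of 2066 nt, came from nearly nothing. Its untreated libraries held 4.97, 1.44 and 0 TPM, and it reached 1419, 761 and 874 TPM at 30 min. It was still at 1459, 374 and 498 TPM at 1 h, then at 84.6, 61.1 and 165 TPM at 2 h, and at 38.5, 47.2 and 227 TPM at 4 h. Every LPS library was above every untreated library, and the 4 h range enclosed the 2 h range. By the edgeR test it rose at 1 h by 8.84 ± 1.29 log2 units (SE, adjusted p = 0.00846), at 2 h by 6.05 ± 1.15 (adjusted p = 0.0179) and at 4 h by 6.24 ± 1.16 (adjusted p = 0.00798). These tests, too, are against untreated libraries that the rule used. The difference between 2 h and 1 h was -2.79 ± 0.98 log2 units and did not pass (adjusted p = 0.262). Without untreated replicate 2 the calls at 1 h and 2 h were lost (adjusted p = 0.0751 and 0.0982), and with only the 2 groups compared in the fit those at 1 h, 2 h and 4 h were lost (adjusted p 0.0572 to 0.0649). Those fits left out the replicate block.

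Transcripts ENSMUST00000170119.7 (574 nt) and ENSMUST00000170752.1 (2303 nt) had the lowest fitted log2 fold changes from 1 h to 2 h among the transcripts called. They were named for that fall, so its p-values below are not independent of the choice. Their rise at 1 h is against untreated libraries that the rule also used, so it is not independent of the rule. ENSMUST00000170752.1 stood at 55.1, 26.0 and 46.9 TPM untreated, 905, 862 and 627 TPM at 30 min, 849.8, 140.4 and 187 TPM at 1 h, 13.6, 19.0 and 22.6 TPM at 2 h, and 15.2, 18.0 and 13.9 TPM at 4 h. All of its libraries at 2 h and 4 h were below all of its untreated libraries. On this scaling that was common. It held for 23.5% at 2 h and 30.6% at 4 h of the 30052 transcripts with at least 5 TPM at 30 min. It rose at 1 h against untreated by 3.60 ± 0.64 log2 units (edgeR, SE, adjusted p = 0.0190) and fell by 4.27 ± 0.66 log2 units from 1 h to 2 h (edgeR, adjusted p = 0.0339). Against untreated cells it was at -0.67 ± 0.58 log2 units at 2 h and -0.69 ± 0.58 at 4 h, neither past the test (edgeR, adjusted p = 0.681 and 0.582).

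ENSMUST00000170119.7 went the same way at a lower level. It stood at 44.6, 26.9 and 36.3 TPM untreated, 412, 488 and 749 TPM at 30 min, 824, 119.6 and 209 TPM at 1 h, 14.7, 9.63 and 27.9 TPM at 2 h, and 17.2, 14.5 and 32.9 TPM at 4 h. At 2 h and 4 h its libraries overlapped the untreated ones. It rose at 1 h against untreated by 3.80 ± 0.70 log2 units (edgeR, adjusted p = 0.0217) and fell by 4.31 ± 0.72 log2 units from 1 h to 2 h (edgeR, adjusted p = 0.0379). At 1 h, in both transcripts, replicate 1 was about as high as at 30 min or higher, while replicates 2 and 3 were well below their 30 min levels.

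The rise of both at 1 h lost its call without any 1 of the untreated libraries (adjusted p 0.0864 to 0.130 for ENSMUST00000170752.1 and 0.0965 to 0.154 for ENSMUST00000170119.7), and for ENSMUST00000170119.7 also without 1 h replicate 1 (adjusted p = 0.0513). With only the 2 groups compared in the fit it was lost for both (adjusted p = 0.117 and 0.104). The fall of ENSMUST00000170752.1 from 1 h to 2 h lost its call without untreated replicate 2 or 3, 1 h replicate 3, any 1 of the 2 h libraries, or 4 h replicate 1 (adjusted p 0.0520 to 0.134). That of ENSMUST00000170119.7 lost it without any 1 of the untreated libraries, 30 min replicate 3, 1 h replicate 1 or 3, 2 h replicate 1 or 2, or 4 h replicate 1 or 2 (adjusted p 0.0539 to 0.152), and with no filter on low counts (adjusted p = 0.0507). With only the 2 groups compared neither fall passed (adjusted p = 0.147 and 0.156). The fits above left out the replicate number as a block, and with it both falls passed (edgeR, adjusted p = 0.0102 and 0.0101).

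**Figure D2:**
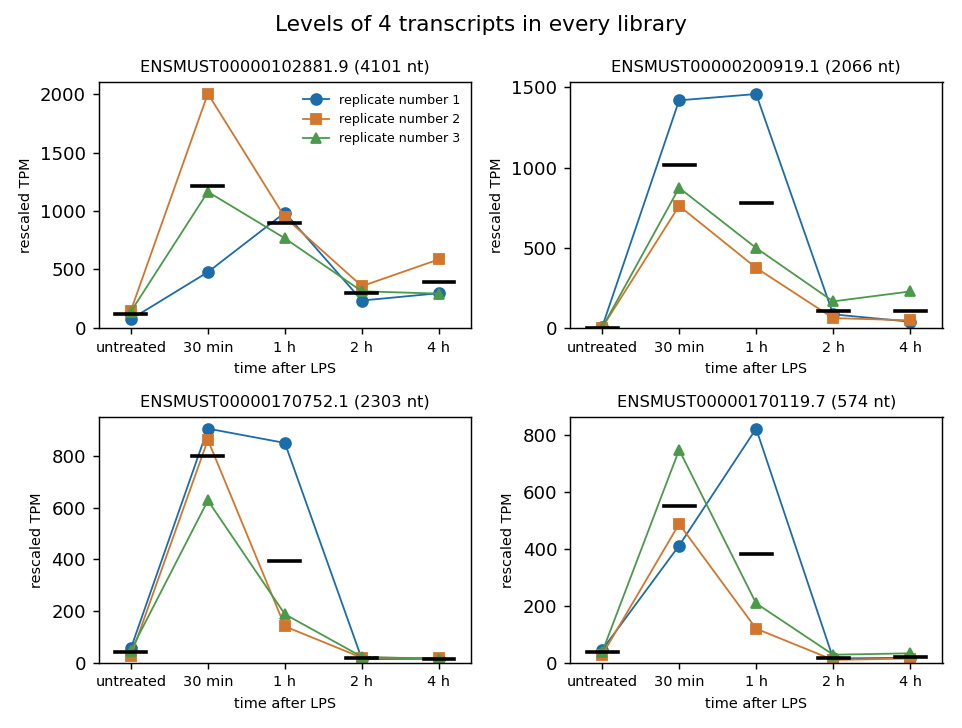
Levels in rescaled TPM (vertical axes, each from 0) of the 4 transcripts named in the text against time after LPS. Points are libraries, joined by replicate number, and black bars are group means. ENSMUST00000102881.9 and ENSMUST00000200919.1 stay above their untreated libraries at 4 h, and ENSMUST00000170752.1 ends below its untreated libraries.

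How much of the rise was left at 1 h differed widely within the set. The part left is the difference between a later mean and the untreated mean, as a percent of the difference between the 30 min mean and the untreated mean. At 1 h its median was 63.4% (quartiles 34.7% and 77.2%), at 2 h it was 8.67% (quartiles 0% and 27.2%) and at 4 h it was 5.68% (quartiles -1.48% and 21.2%). These parts depend on the scaling. In rescaled TPM, the median log2 ratio of 4 h to untreated over all transcripts with at least 5 TPM at 30 min was -0.69, -0.79 and -0.57 in numbers 1, 2 and 3. With TMM scaling in edgeR, the 177 transcripts of the set that could be tested had medians of 1.58 at 2 h and 1.57 at 4 h above untreated, in log2 units. The mean was below 0.5 times the 30 min mean in 62 of 206 transcripts at 1 h and in 185 at 2 h. By these group means the median loss was larger between 1 h and 2 h than before 1 h, whereas in the libraries numbered 2 the median log2 ratio was much the same over both steps (-1.12 for 1 h to 30 min and -1.14 for 2 h to 1 h, with 1 added to each TPM). The group means fell in order at each step in 106 transcripts, the 2 h mean was above the 1 h mean in 23, and the 4 h mean was above the 2 h mean in 80.

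By the part left at 1 h, 66 transcripts (32.0%) kept 75% or more, 104 (50.5%) kept between 25% and 75%, and 36 (17.5%) kept less than 25%. The groups differed in abundance. The median 30 min mean was 77.6 TPM in those that kept 75% or more, 40.4 TPM in the middle group and 10.1 TPM in those that kept less than 25%. The medians at 1 h were 69.5, 24.2 and 1.49 TPM in the same order, at 2 h they were 18.9, 6.38 and 1.99 TPM, and at 4 h 14.8, 4.91 and 1.70 TPM. The quick group also held shorter transcripts, with a median of 902 nt against 1358.5 nt in the middle group and 1581 nt in the slow group. Of the 36 quick transcripts, 12 had a mean estimated count under 10 at 30 min, against 12 of 104 and 4 of 66 in the other groups, and the part of low counts in that quick loss was not tested. These 3 groups were cut from the values themselves and have no test.

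**Figure D3:**
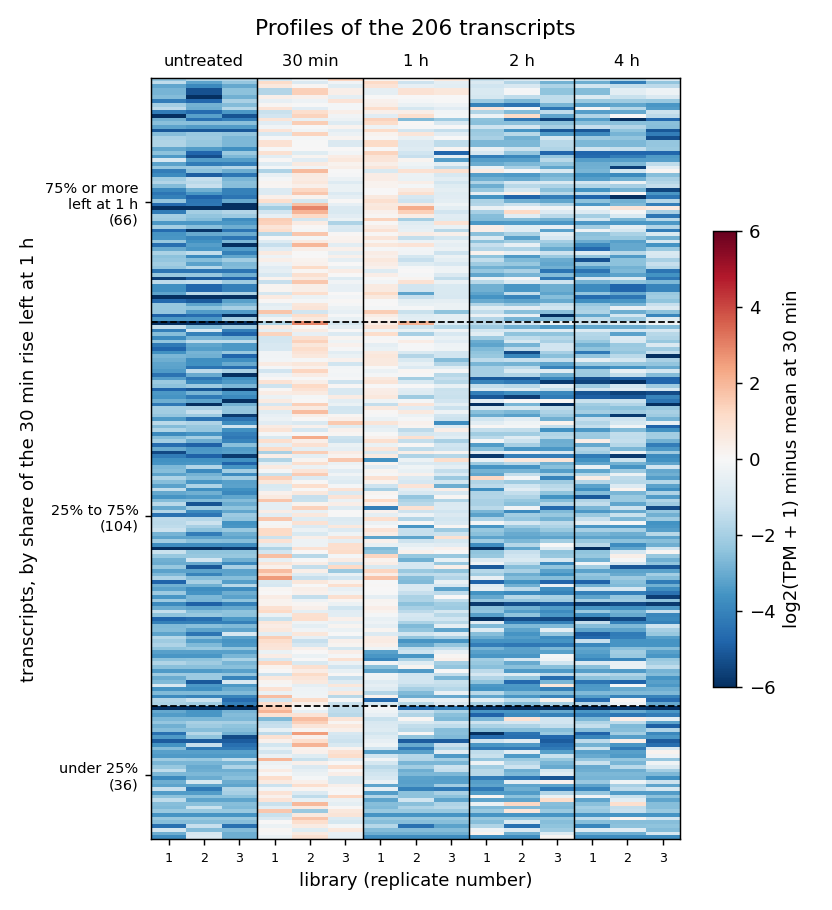
Heat map of log2(TPM + 1) minus the transcript's mean of it at 30 min, with 1 row for each of the 206 transcripts and 1 column for each library, grouped by time. Rows are ordered by the percent of the 30 min rise left at 1 h, and dashed lines separate the 66, 104 and 36 transcripts of the 3 groups. Blue marks levels below the 30 min mean, and the columns at 2 h and 4 h are mostly blue in all 3 groups.

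The libraries did not agree on whether the peak lay at 30 min or at 1 h. Within the libraries numbered 1, 109 of the 206 transcripts were lower at 1 h than at 30 min, against 198 in number 2 and 181 in number 3, and 97 were lower in all 3 numbers. The median log2 ratio of 1 h to 30 min, with 1 added to each TPM, was -0.08 in number 1, -1.12 in number 2 and -0.72 in number 3. Over all transcripts with at least 5 TPM at 30 min it was -0.28, 0.06 and -0.06. In number 1 the set thus fell less than transcripts in general. The counts by number were made in the set alone. Over all 5 groups, 103 transcripts had their highest library at 30 min in number 1 and 94 had it at 1 h. In number 2 these counts were 189 and 7, and in number 3 they were 175 and 23. Replicate 1 of the 1 h group thus held the set near its 30 min level, and the other replicates did not.

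By the edgeR test of 1 h against 30 min, a contrast that the rule used in part, 0 of the 177 transcripts of the set that could be tested were called lower, where 0% of all 46186 transcripts tested were. At an unadjusted p under 0.05, 6 of the 177 were lower, where 4.71% of all transcripts passed in either direction. The fit with the replicate number as a block and limma also called 0, where each called 0% of all. At an unadjusted p under 0.05 they had 10 and 25 of the 177 lower, where 8.67% and 5.42% of all transcripts passed in either direction. DESeq2 called 1 of the 164 to which it gave an adjusted p, where 0.303% of all were called. In 28 of the 206 transcripts all libraries at 1 h lay below all libraries at 30 min, against 5.48% of the 30052 transcripts with a 30 min mean of at least 5 TPM. The rule itself sets part of that number.

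The step from 1 h to 2 h was seen in all 3 replicate numbers. In the libraries numbered 1, 2 and 3, 177, 164 and 167 of the 206 transcripts were lower at 2 h than at 1 h, and 131 were lower in all 3. The median log2 ratio of 2 h to 1 h was -2.09, -1.14 and -1.38, against -0.08, -0.06 and -0.19 over all transcripts with at least 5 TPM at 30 min. The counts by number were made in the set alone. In 106 of 206 transcripts, all libraries at 2 h lay below all libraries at 1 h, against 11.8% of the 30052 transcripts with at least 5 TPM at 30 min. The rule asked for a peak at 30 min and a fall by 4 h, so a fall at some step was built into the set. These counts are therefore not independent of the rule.

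**Figure D4:**
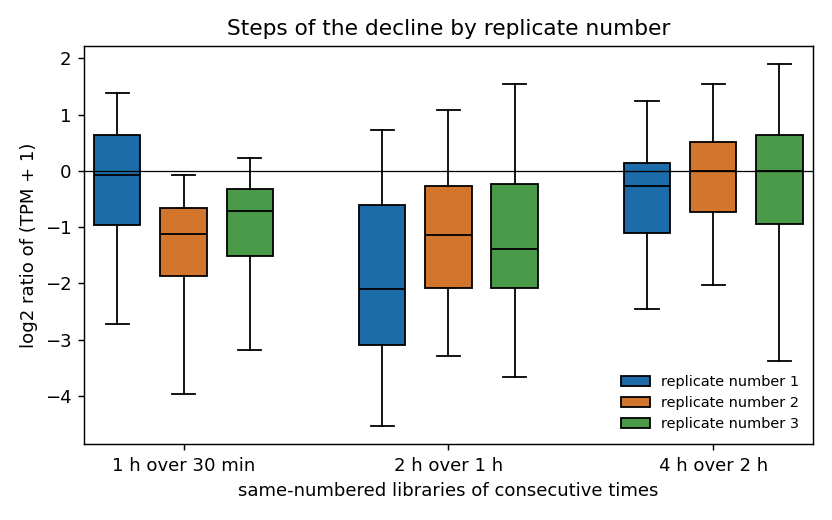
Log2 ratio of (TPM + 1) between same-numbered libraries of consecutive times (vertical axis) for the 206 transcripts. Boxes span the quartiles with the median as a line, whiskers run from percentile 5 to percentile 95, and colours mark the replicate number. At 1 h over 30 min the median is -0.08 in number 1 and -1.12 in number 2, while at 2 h over 1 h it is below -1 in every number.

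Of the 177 transcripts tested, 6 fell from 1 h to 2 h by the edgeR test and 0 were called higher, where 0.0974% of all transcripts tested were called lower and 0.325% higher. Since the rule asked for a fall by 4 h, which favours lower over higher calls here, the counts in this paragraph are shaped by it. At an unadjusted p under 0.05, 85 of the 177 were lower and 0 higher, where 11.5% of all transcripts passed in either direction. The median fitted change of the 177 was -1.80 log2 units, against 0.03 over all 46186 transcripts. The fit with the replicate number as a block called 33 of the 177 lower and 0 higher, where 1.52% and 2.69% of all transcripts were. DESeq2 called 57 of 162 lower and 1 higher, where 2.79% and 3.49% of all were, and limma on log2(TPM + 1) called 20 of 177 lower and 0 higher, where 0.424% and 0.673% were. All 6 that fell by the edgeR test had risen at 1 h against untreated, and 0 of them were called higher than untreated at 2 h.

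The fits in this paragraph left out the replicate block, with which 33 were called lower. The count of 6 rested on the libraries in the fit. It was 0 without 1 h replicate 3, 2 h replicate 1 or 2 h replicate 2, and 1 without untreated replicate 2, untreated replicate 3, 1 h replicate 1 or 4 h replicate 1. Without untreated replicate 1 it was 2, and without 30 min replicate 3, 1 h replicate 2, 2 h replicate 3 or 4 h replicate 2 it was 3. With only the 2 groups compared in the fit it was 0.

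**Figure D5:**
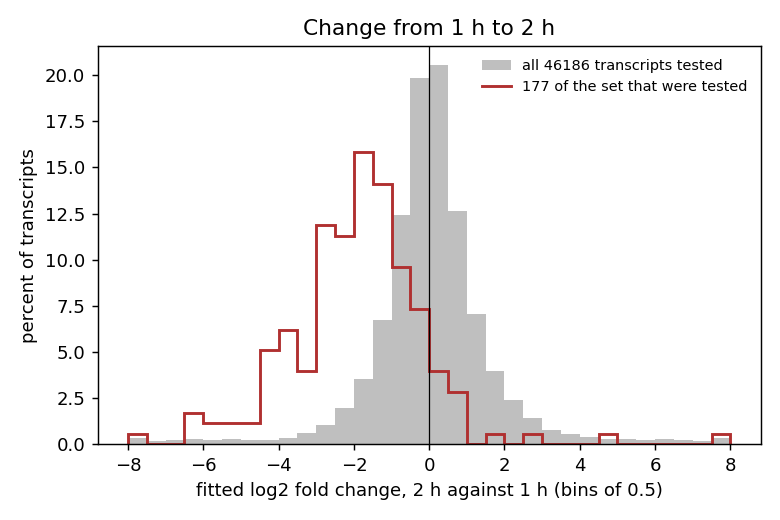
Distribution of the fitted log2 fold change of 2 h against 1 h (horizontal axis, bins of 0.5) as the percent of transcripts in each bin (vertical axis). The grey area is all 46186 transcripts tested and the red line is the 177 of the set that were tested. The median of the set is -1.80 and that of all transcripts is 0.03.

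At 1 h most of the set still stood above untreated cells. All libraries at 1 h were above all untreated libraries in 137 of 206 transcripts, against 6.89% of the 30052 transcripts with at least 5 TPM at 30 min. By the edgeR test 46 of the 177 tested rose at 1 h, where 0.944% of all transcripts tested did, and the median fitted change was 3.44 log2 units against -0.06 over all. With library size alone in place of TMM these medians were 3.03 and -0.47, and by limma on log2(TPM + 1) they were 2.28 and -0.40. With the replicate block 94 rose, where 2.93% of all did, and DESeq2 called 110, where it called 3.81% of all. The untreated libraries also served the choice of the set, which asked for an untreated level low relative to 30 min, so these counts are not independent of the rule. The count of 46 was 9, 6 and 11 without untreated replicates 1, 2 and 3, and 20 and 27 without 1 h replicates 1 and 2. It was 28 with library size alone in place of TMM and 27 with only the 2 groups compared in the fit.

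At 2 h fewer transcripts stood above untreated cells. By the edgeR test 13 of the 177 transcripts rose against untreated, where 1.97% of all transcripts tested did, and 0 were called lower, where 0.591% were. The rule asked for a low untreated level, which favours higher over lower calls, so here too the counts are not independent of it. At an unadjusted p under 0.05, 1 of the 177 was lower, where 15.9% of all transcripts passed in either direction, and the block, DESeq2 and limma fits also called 0 lower, where they called 3.06%, 4.15% and 3.9% of all. The median fitted change was 1.58 log2 units against -0.03 over all transcripts. It depended on the scaling. With library size alone in place of TMM the median of the set was 1.06 and that over all transcripts -0.55. By limma on log2(TPM + 1) these were 0.85 and -0.45. All libraries were above the untreated ones in 53 of 206 transcripts, against 7.5% of the 30052 transcripts, and below them in 11, against 23.5%. With the replicate block 39 rose, where 6.42% of all did, and DESeq2 called 44 of 174, where it called 5.71% of all. The count of 13 was 5, 4 and 6 without untreated replicates 1, 2 and 3, and 6 and 7 without 2 h replicates 1 and 2. It was 8 with only the 2 groups compared in the fit.

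At 4 h, by the edgeR test, 14 of the 177 transcripts rose against untreated, where 3.91% of all transcripts tested did, and 1 fell, where 2.33% did. The rule used both groups of this comparison, through the low untreated level and the limit on the 4 h mean, so these counts are shaped by it. The median fitted change was 1.57 log2 units against -0.06 over all transcripts. With library size alone in place of TMM the median over all transcripts moved to -0.77 and that of the set to 0.77. All libraries were above the untreated ones in 33 of 206 transcripts, against 6.71% of the 30052 transcripts, and below them in 17, against 30.6%. The block fit called 46 higher, where 8.87% of all were, and 1 lower, where 6.27% were. DESeq2 called 45 of 175 higher and 1 lower, where 7.98% and 6.44% of all were, and limma on log2(TPM + 1) called 2 lower, where 10.7% of all were. The count of 14 was 8 without untreated replicate 1 and 9 without untreated replicate 2, and it was 8 with only the 2 groups compared in the fit.

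The 14 transcripts that rose at 4 h had a median level of 514 TPM at 30 min and of 164 TPM at 4 h (9.18 to 392 TPM), and each was left with 10.2% to 47.6% of its 30 min mean, with a median of 32.1%. Of the transcripts that rose at 1 h, 11 also rose at 2 h, and 9 rose at 1 h, 2 h and 4 h. In all, 17 rose at 2 h or at 4 h, and 4 rose at 4 h but not at 2 h, a difference between the times that was not called for any of them. In the block fit 32 rose at all 3 times. These overlaps between times were counted in the set alone and not over all transcripts.

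The transcript that fell below the untreated level at 4 h by the edgeR test, of 1142 nt, was also one of the 6 that fell from 1 h to 2 h. It stood at 4.50, 7.53 and 4.26 TPM untreated, 80.0, 84.2 and 29.4 TPM at 30 min, 79.9, 33.7 and 23.2 TPM at 1 h, 2.48, 3.63 and 3.04 TPM at 2 h, and 0.674, 0.279 and 0.421 TPM at 4 h. All libraries at 2 h were below all untreated libraries, and all at 4 h were below all at 2 h. Of the 30052 transcripts with at least 5 TPM at 30 min, 23.5% and 10.1% did the same. At 4 h it was lower than in untreated cells by a fitted log2 change of -2.89 ± 0.68 (edgeR, SE, adjusted p = 0.0262). It was picked for that call. Its estimated counts in libraries 1, 2 and 3 were 19.7, 21.3 and 9.68 untreated and only 2.18, 1.04 and 1.09 at 4 h, so the call rests on few reads. The call was lost without any 1 of the untreated or the 4 h libraries (adjusted p up to 0.100), and with only the 2 groups compared in the fit. Those fits left out the replicate block, with which the call passed (edgeR, adjusted p = 0.0103). By means, 51 of 206 had a 2 h mean and 65 a 4 h mean below the untreated mean. In the limma fit on log2(TPM + 1), 48 of the 177 were below untreated at 2 h and 64 at 4 h, against 68.7% and 72.8% of all transcripts. In the edgeR fit with TMM these were 32 and 33 of the 177, against 51.1% and 51.9%. A level below the start was thus less common in the set than over all transcripts. The rule, which asked for an untreated level low relative to 30 min, shapes these counts.

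By its median change, the set moved little from 2 h to 4 h. By the edgeR test 0 of the 177 transcripts were called lower and 0 higher, where 0.039% and 0.013% of all transcripts tested were. At an unadjusted p under 0.05, 4 of the 177 were lower and 3 higher, where 6.78% of all transcripts passed in either direction, and the block, DESeq2 and limma fits also called 0 in either direction. Of all transcripts these fits called 0.491%, 1.33% and 0.126% lower and 0.338%, 1.03% and 0.0541% higher. The median fitted change was -0.12 log2 units against 0 over all transcripts. In the libraries numbered 1, 2 and 3, 121, 104 and 100 of the 206 transcripts were lower at 4 h than at 2 h. All libraries at 4 h lay below all at 2 h in 16 of 206 transcripts, against 10.1% of the 30052 transcripts, and above them in 8, against 3.03%.

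The spread at 30 min was wide. The coefficient of variation of the 3 libraries at 30 min had a median of 60.9% over the set and ran from 2.87% to 153%. In 38 transcripts 1 library held more than 66.7% of the sum over the 3 libraries at 30 min. That library was replicate 1 in 15 of them, replicate 2 in 21 and replicate 3 in 2. The highest 30 min library was replicate 1 in 72 transcripts, replicate 2 in 91 and replicate 3 in 43.

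Membership itself depended on the same libraries. Applied without 30 min replicate 1, the rule kept 456 transcripts, of which 162 were in the set. Without replicate 2 it kept 318, of which 136 were in the set, and without replicate 3 it kept 358, of which 184 were. With 1 library fewer at 30 min, the condition that all of them lie above the untreated libraries is easier to meet. The part of each condition in these gains and losses was not tested. In all, 67 of the 206 transcripts were kept whichever of the 15 libraries was left out.

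The border with a peak at 1 h was also thin. The same rule with 1 h in the place of 30 min kept 437 transcripts. Of the 206 transcripts, 103 met every condition of that rule at 1 h other than having the highest mean there, and 125 of the 437 met every other condition at 30 min. The 437 were higher at 1 h than at 30 min in 435, 300 and 345 cases in the libraries numbered 1, 2 and 3. So the libraries numbered 1, which put the 206 transcripts nearest to a peak at 1 h, also put the most transcripts of the other set there.

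The transcripts of the set had a median length of 1346.5 nt (309 to 8383 nt), against 1630 nt in the 30052 transcripts with at least 5 TPM at 30 min, and 43.2% against 39.7% were at most 1000 nt long. The mean estimated count at 30 min had a median of 147 and ran from 2.09 to 14188, and 28 transcripts had a mean under 10. Of the 206, 177 passed the filter on low counts, and the others have levels but no test. In 3 pairs both transcripts had identical TPM in all 15 libraries, so that the 206 transcripts have 203 distinct profiles. Isoforms of the same gene share reads, which were divided among them by estimation, so the number of transcripts is not a number of genes and transcripts are not independent of each other.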

How the data were processed

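Per the submitters' processing notes, the authors quantified transcripts with kallisto 0.44.0. The sources used here do not name the annotation, the genome build or the fragment settings. For each library the authors deposited the estimated count and the TPM of each transcript. TPM was rescaled to a total of 1e+06 without the most abundant transcript, which moves all other levels, and the rule was applied to group means. The members and the gene and marker lists were chosen with earlier results of these data known, and those lists could not be applied without gene names, so the transcript was the unit in place of the gene. By the naming rule, without a table of names, the 2 transcripts with the highest 30 min mean and the 2 with the lowest fitted change from 1 h to 2 h among those called were named. Transcripts described by length alone were picked after their values were seen.

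Estimated counts were rounded and tested with edgeR 4.0.16 (R 4.3.3; quasi-likelihood, 1 term per group, all 15 libraries, TMM factors 0.679 to 1.52). The TMM factors differed by group. They were 1.52, 1.42 and 1.12 in the untreated libraries numbered 1, 2 and 3, and 0.912, 0.754 and 0.679 at 4 h. The levels in rescaled TPM do not use these factors, so levels and edgeR changes against untreated are on different scalings. The filterByExpr function (minimum count 10, minimum total 15) left 46186 transcripts. P-values were adjusted by Benjamini-Hochberg over all of these, with calls at an adjusted p under 0.05. Alternatives were DESeq2 1.42.0, limma 3.58.1 on log2(TPM + 1) and log2(TPM + 0.1), other scalings and filters, and leaving out each library. The scripts were tested on simulated data. Replicate numbers 1 to 3 recur in every group. All 30 pairs of same-numbered libraries deviated together from their group means (correlation 0.258 to 0.545), against -0.368 to -0.0063 in the 60 other pairs. The number was therefore taken to pair libraries. The main fit and the fits without 1 library did not use this pairing, and their calls and lost calls are to be read with that limit. The fit with the replicate number as a block is given beside the main counts of calls in each comparison, and where it changes a call.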

Additional observations from a re-analysis of the deposited data

How the results depend on the processing

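The number of transcripts meeting the rule was 118 with a pseudocount of 5, all of them in the set, and ran from 175 to 456 when 1 library was left out. It was 165 with CPM and TMM scaling in place of TPM, of which 122 were in the set, and 177 to 237 in the other settings. Of the transcripts tested, those that rose at 1 h numbered 28 with library size alone, 94 with the replicate block, 27 with only the 2 groups compared, 110 by DESeq2 and 6 to 53 when 1 library was left out. Those that rose at 2 h numbered 39, 8 and 44 with the block, the 2 groups and DESeq2, and 4 to 15 without 1 library. Those that rose at 4 h numbered 46, 8 and 45, and 8 to 18. Those that fell from 1 h to 2 h numbered 10 with library size alone, 3 with no filter, 33 with the replicate block, 0 with the 2 groups, 20 and 13 by limma with pseudocounts of 1 and 0.1, 57 by DESeq2, and 0 to 9 without 1 library. Those lower at 4 h than in untreated cells numbered 2 by limma with either pseudocount, 0 with the 2 groups, and 0 to 1 without 1 library. Those lower at 4 h than at 2 h numbered 0 in all 23 alternatives. The cause of these shifts was not tested. The median change from 2 h to 4 h turned from -0.12 to 5.89e-05 and 0.0197 log2 units without 2 h replicate 1 or 2, in a range of -0.35 to 0.02. The median change at 4 h against untreated, 1.57, was 0.77 with library size alone, 0.35 and 0.52 by limma, and 1.08 without 4 h replicate 2.

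Signs turned only in comparisons that passed no test. From 2 h to 4 h, ENSMUST00000200919.1 was at -0.34 and -0.35 by limma and -1.0 to 0.67 without 1 library, and ENSMUST00000170752.1 at 0.0205 with DESeq2 size factors and 0.0205 by DESeq2 and -0.24 to 0.12 without 1 library. At 4 h against untreated, ENSMUST00000170119.7 ran from -0.40 to 0.15. Gene sums were not run, since no table paired transcripts with genes. The depth, at which 28 of the 206 transcripts had under 10 counts on average at 30 min, and the 3 libraries a group limit what could be called, and the errors leave out the uncertainty of dividing reads among isoforms.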
